A study of Mus musculus with 3 samples.

Results

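The SR (serine/arginine-rich) splicing factor genes described here were chosen by symbol from a list of 10: Srsf1, Srsf2, Srsf3, Srsf4, Srsf5, Srsf6, Srsf7, Srsf9, Srsf10 and Srsf11. They are 10 of 55536 annotated genes, and they carry 85 of 141767 annotated transcripts. RNA bound to chromatin was sequenced, after removal of ribosomal RNA, from bone-marrow-derived macrophages of C57BL/6J mice, a cell cultured from marrow precursors. All 3 libraries belong to 1 group. The cells had received Lipid A, the moiety of endotoxin recognised by Toll-like receptor 4, at 100 ng/ml for 12 h, had been washed and left for 12 h, and had then received the same dose for 60 min. Replicates 1, 2 and 3 were made from 1000, 250 and 500 ng of RNA and share a donor entry. The labels call them biological replicates but do not state separate animals or cultures. The p-values below therefore cover only how much these libraries vary, which may be technical. Every library had the same treatment, so the values are levels and ratios within libraries and not responses to Lipid A.

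SR proteins carry RNA recognition motifs and a tail rich in arginine and serine. They bind enhancer sequences in exons, recruit the spliceosome to nearby splice sites, and several of them accompany the mRNA out of the nucleus. Their genes are textbook cases of autoregulation: many hold an alternative exon with a premature stop codon (often called a poison exon) or an intron that can stay in the RNA, and such RNAs are degraded by nonsense-mediated decay or held in the nucleus. Chromatin-bound RNA contains transcripts that are still being made, so reads of unfinished precursor and reads of RNA that keeps an intron cannot be told apart in these tables.

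The macrophage label was borne out by its markers, with 8 of 8 at 10 TPM (a level per length of transcript, scaled to the same total in each library) or more in each library and means from 29.1 to 441 TPM. All 5 neutrophil markers and all 4 T and B cell markers had at most 3 counts in any library. Fibroblast and stromal markers summed to 5, 46120 and 110 counts in replicates 1, 2 and 3, and 11 of 11 were highest in replicate 2. Class ratios below are therefore also given without replicate 2 where that changed their sign or call, and levels and spliced shares are given by library. The part of these markers in the results was not tested. Gene counts summed to 12602702, 17222239 and 17042691. In bulk RNA such as this, fewer cells of a type and less RNA per cell cannot be told apart.

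Srsf5 was the most abundant SR gene on chromatin and Srsf9 the least. Srsf5 (ENSMUSG00000021134.17, chr12:80945504-80950507, plus strand, build mm10), which encodes a splicing regulator with a pair of RNA recognition motifs, had 546, 621 and 777 TPM in replicates 1, 2 and 3 and a mean of 648 ± 118 TPM (SD, n = 3). It alone held 45.9% of the summed mean TPM of the 10 genes. Srsf11 (ENSMUSG00000055436.18, chr3:158010473-158036639, minus strand), an SR-like protein known to contact the U2AF splice-site factor, had 288, 353 and 404 TPM (348 ± 58.3). Srsf3 (ENSMUSG00000071172.13, chr17:29032628-29043373, plus strand), a small SR protein that also works as an mRNA export adaptor, had 79.3, 129 and 135 TPM (114 ± 30.5). No library of Srsf5 was as low as any library of Srsf11, and no library of Srsf11 as low as any of Srsf3. The mean of Srsf5 was 1.86 times that of Srsf11, and the mean of Srsf11 was 3.05 times that of Srsf3. These levels are from the tables in RSEM layout. In kallisto layout the means of Srsf5, Srsf11 and Srsf3 were 505, 350 and 114 TPM, so Srsf5 and Srsf11 lay closer together.

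Below these came a series of genes whose neighbours overlapped. Srsf2 (ENSMUSG00000034120.18, chr11:116849901-116853094, minus strand), a protein that stays in nuclear speckles, had 50.2, 123 and 75.7 TPM (82.8 ± 36.7). Srsf6 (ENSMUSG00000016921.14, chr2:162931528-162937121, plus strand) had 49.0, 69.6 and 77.0 TPM (65.2 ± 14.5). Srsf10 (ENSMUSG00000028676.17, chr4:135855747-135869908, plus strand), known as a general splicing repressor when it is dephosphorylated, had 34.6, 67.6 and 58.8 TPM (53.7 ± 17.1). Each of these genes reached into the range of the next. Outside replicate 2, Srsf2 lay below both values of Srsf3 (79.3 and 135 TPM), so the overlap of Srsf2 with Srsf3 rests on replicate 2. Srsf2 was barely above Srsf6 in replicate 1 and below it in replicate 3, so its higher mean rests on replicate 2 too. Srsf7 (ENSMUSG00000024097.11, chr17:80200080-80207307, minus strand), which has a zinc knuckle and serves as an export adaptor, had 22.1, 43.4 and 48.1 TPM (37.9 ± 13.8). Srsf4 (ENSMUSG00000028911.16, chr4:131873617-131901706, plus strand), the SR protein with the longest arginine and serine tail, had 23.0, 27.1 and 34.7 TPM (28.3 ± 5.92). Srsf1 (ENSMUSG00000018379.17, chr11:88047373-88053755, plus strand), the founding member of the family, had 20.6, 29.6 and 29.2 TPM (26.5 ± 5.04). These last genes were close, and the order of Srsf7, Srsf4 and Srsf1 changed between libraries. In kallisto layout the mean of Srsf10 (53.0 TPM) lay above that of Srsf6 (47.9 TPM). Srsf9 (ENSMUSG00000029538.14, chr5:115327177-115333080, plus strand) had 4.64, 10.9 and 6.23 TPM (7.27 ± 3.27), from 65, 131 and 77 expected counts.

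Of 9 pairs of neighbours in this order, 6 overlapped between libraries, and the gap from Srsf1 down to Srsf9 (3.64 times) was the third that did not. Compared within each library, 6 of the 9 pairs kept the same order in all 3. Among these were Srsf3 over Srsf2, Srsf6 over Srsf10 and Srsf10 over Srsf7, which overlapped between libraries. The median of the 10 means was 59.4 TPM, beside 17.8 TPM over the 6367 protein-coding genes with a mean of at least 5 TPM. All 10 genes were lowest in replicate 1 in TPM from the tables in RSEM layout, as were 64.7% of those 6367 genes. That order depends on the scale, since 6 of 10 were lowest in replicate 1 and 4 in replicate 2 in the tables in kallisto layout, and 7 and 3 when TPM was rescaled to the total of protein-coding genes. Some reads can belong to neighbours, since the strand setting of the counting is not given in the sources used here. On the opposite strand, Mettl23 (4.36 ± 0.934 TPM) and Mfsd11 (14.9 ± 7.03 TPM) overlap Srsf2. On the same strand, A930004J17Rik (23.4 ± 8.52 TPM) overlaps Srsf4 and Gm43362 (13.4 ± 4.33 TPM) overlaps Srsf11, so Srsf4 in particular is uncertain.

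**Figure D1:**
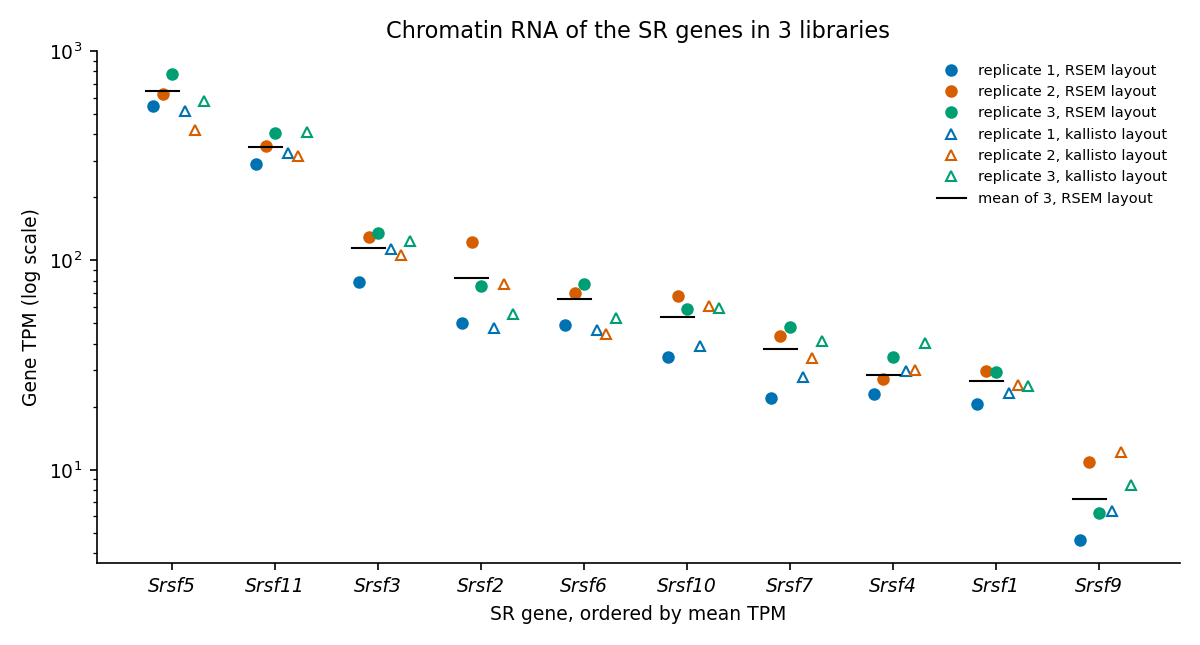
Level of each SR gene in TPM on a log axis, with filled circles for the 3 libraries in RSEM layout, open triangles for the same libraries in kallisto layout and a bar at the RSEM mean. Srsf5 and Srsf11 stand above the other genes and Srsf9 below them, while the genes from Srsf3 to Srsf1 overlap with their neighbours.

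In 6 of the 10 genes, GENCODE M21 annotates an exon with a premature stop that lies wholly inside an intron of the main coding transcript, in a transcript of the nonsense-mediated decay class. The coding part of each such exon is printed from the transcript sequences, 5′ to 3′ on the strand of the gene, with the premature stop codon in capitals. These letters are shown because they are what an RNA gains up to the premature stop when the exon is included. The introns that hold them are also the ones the values below turn on.
Srsf3-201, chr17:29039454-29039487, plus strand: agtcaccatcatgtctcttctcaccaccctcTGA
Srsf7-203, chr17:80205054-80205081, minus strand: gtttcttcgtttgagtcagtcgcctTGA
Srsf11-210, chr3:158024209-158024231, minus strand: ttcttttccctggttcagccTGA
Srsf6-201, chr2:162932815-162932966, plus strand: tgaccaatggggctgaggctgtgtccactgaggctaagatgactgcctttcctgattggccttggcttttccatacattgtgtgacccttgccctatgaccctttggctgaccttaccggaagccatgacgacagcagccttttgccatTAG
Srsf9-205, chr5:115328347-115328428, plus strand: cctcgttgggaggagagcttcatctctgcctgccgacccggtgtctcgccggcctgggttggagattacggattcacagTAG
Srsf4-203, chr4:131884276-131884390, plus strand: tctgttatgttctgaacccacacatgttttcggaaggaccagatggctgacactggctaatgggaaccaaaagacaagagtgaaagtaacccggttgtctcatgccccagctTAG
The stop comes 34, 28 and 23 bases into the exon in Srsf3, Srsf7 and Srsf11, and 152, 82 and 115 bases in Srsf6, Srsf9 and Srsf4. The exons themselves are 456, 460, 109, 268, 358 and 207 bases long in the order printed. Srsf11-212 has another exon with a stop in the same intron, at chr3:158023243-158023359.

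The level of the decay-class models that include these exons differed between the quantifications, most in Srsf4, Srsf9 and Srsf11. The decay class held a mean of 8.65% of Srsf3, 8.80% of Srsf6 and 3.54% of Srsf7 in RSEM layout, and 5.15, 8.66 and 2.56% in kallisto layout. It held 24.5% of Srsf4 and 1.48% of Srsf11 in RSEM layout, beside 48.3 and 8.99% in kallisto layout. In Srsf9 it held 0, 0 and 6.10% in the 3 libraries in RSEM layout and 28.3, 4.35 and 21.3% in kallisto layout. Srsf3-201 had 10.2, 7.61 and 9.75 TPM, and Srsf6-201 had 7.18, 4.39 and 4.19 TPM. Srsf7-203 had 0.88, 0.90 and 2.20 TPM, from 23.6, 20.7 and 54.7 expected counts. Replicate 1 had the highest value of Srsf3-201 and Srsf6-201, and replicate 3 that of Srsf7-203. For Srsf11-210 the tables differed, with 5.51, 2.79 and 2.56 TPM in RSEM layout and 22.8, 31.9 and 36.8 TPM in kallisto layout, and its level is uncertain. For Srsf4, Srsf4-203 had 2.04, 0.61 and 2.37 TPM in RSEM layout and 3.53, 6.62 and 10.3 TPM in kallisto layout. Srsf4-204, whose exon begins further in and carries the same stop, had 4.73, 5.74 and 4.80 TPM against 11.1, 8.22 and 8.20 TPM. Srsf9-205 was listed at 0 in replicates 1 and 2 and had 0.38 TPM in replicate 3 in RSEM layout, and had 1.80, 0.53 and 1.80 TPM in kallisto layout. The processed transcript Srsf9-202 includes the same exon and is not in the decay class. It had 0.16, 1.19 and 0.49 TPM in RSEM layout and 1.00, 4.62 and 2.36 TPM in kallisto layout. The levels of these exons in Srsf4 and Srsf9 are therefore uncertain too.

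Splicing of the introns around these exons was then measured. For each intron of the main coding transcript, the TPM of models that splice it at its exact ends was taken. It was divided by the TPM of all models that do so, retain the intron or have exon bases inside it. That total is called the RNA across the intron below. Models that remove the intron from a splice site outside it were not counted. In all 6 genes the intron with the premature-stop exon had the lowest spliced share of that gene's introns, in the mean over libraries and in both quantifications. Counted by library this held in 6, 6 and 5 of 6 genes in replicates 1, 2 and 3 in RSEM layout, and in 5, 6 and 6 in kallisto layout. Among the other 599 protein-coding genes with a mean of at least 5 TPM and such an exon, 239 (39.9%) had their least spliced intron there. In RSEM layout the spliced share there was below 50% in 5 of the 6 SR genes and in 161 (26.9%) of the others. This measure was chosen after values had been seen and was not tested. An intron can fall below 100% only where an alternative model is annotated, and by that rule the intron with the exon always could.

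**Figure D2:**
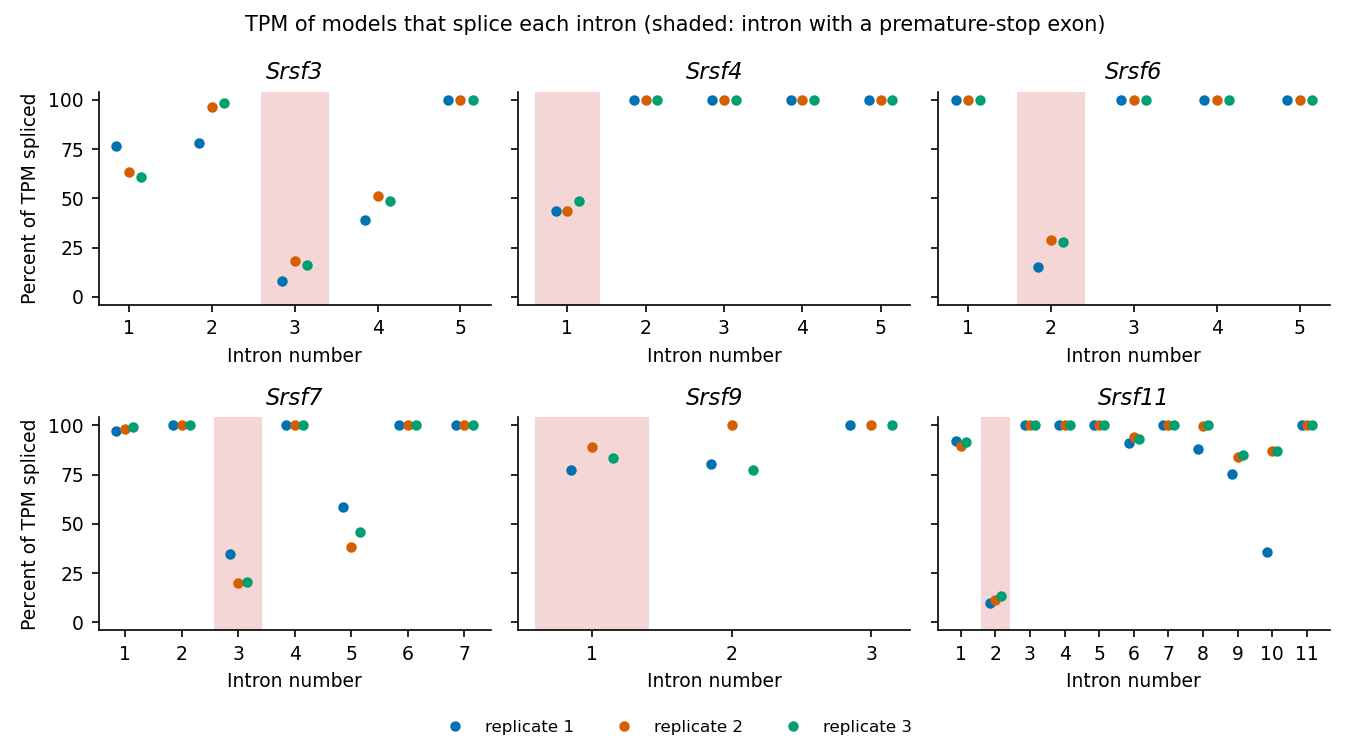
Percent of TPM in models that splice each intron of the main coding transcript at its exact ends, in RSEM layout. Models that remove it from a site outside it are not counted. The 6 SR genes with a premature-stop exon inside an intron are shown, with 1 point for each library. The shaded intron holds the premature-stop exon and is the lowest in Srsf3, Srsf4, Srsf6, Srsf7 and Srsf11 in each library. In Srsf9 intron 2 is lower in replicate 3.

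In Srsf3 the intron is intron 3 (chr17:29038625-29040774, 2150 bases). Its spliced form had 4.95, 16.4 and 14.7 TPM, which was 8.02, 18.3 and 16.4% of the RNA across it. In kallisto layout the spliced share was 4.54, 14.0 and 12.9%, so it was lowest in replicate 1 in both. Models that retain all of the intron held 48.6, 47.6 and 50.5% in RSEM layout but 29.3, 40.1 and 40.8% in kallisto layout, where replicate 1 was the lowest. The retaining model, Srsf3-204, had 30.0, 42.5 and 45.2 TPM and keeps intron 4 as well (chr17:29040814-29041206), which was spliced in 38.9, 51.1 and 48.9% of the RNA. In the coding transcript Srsf3-202 all of these introns are removed.

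In Srsf6 the intron is intron 2 (chr2:162932143-162933425, 1283 bases). Its spliced form had 7.5, 20.2 and 21.4 TPM and the retaining model Srsf6-204 had 34.1, 45.1 and 51.0 TPM. The retained share was 69.6, 64.7 and 66.3%, and the spliced share 15.3, 28.9 and 27.9%. The other 4 introns of Srsf6 are spliced in every model that spans them, so intron 2 is the one intron of this gene with alternative models.

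In Srsf7 the intron is intron 3 (chr17:80204388-80205261, 874 bases). It was retained in 51.0, 54.8 and 55.7% and spliced in 34.5, 19.9 and 20.3% of the RNA across it. Here replicate 1 had the highest spliced share, the opposite of Srsf3 and Srsf6. Intron 5 was spliced at its exact ends in 58.6, 38.0 and 46.1% in RSEM layout and in 35.1, 30.6 and 36.2% in kallisto layout. In replicate 1 in kallisto layout it lay below intron 3 (44.0%). The intron 5 shares leave out Srsf7-207 and other models that remove this intron from a splice site inside exon 5. In RSEM layout they rest on 3.28, 6.19 and 8.03 TPM spliced, against 2.32, 10.1 and 9.37 TPM of Srsf7-204, which ends inside intron 5. The gene had 22.1, 43.4 and 48.1 TPM, so these are not shares of all its RNA. The leading isoform, Srsf7-207, retains intron 3 and had 8.13, 17.1 and 20.3 TPM, beside 2.73, 5.64 and 7.67 TPM for the coding Srsf7-201.

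The ends of these 3 introns are shown because they are the sites left unused in the retaining models, with the first and last intron bases in capitals and the neighbouring exon bases at the outer ends.
Srsf3 intron 3, 5′ end: cagGTactt
Srsf3 intron 3, 3′ end: tttactgtttctgcttctAGatc
Srsf6 intron 2, 5′ end: gcaGTgagt
Srsf6 intron 2, 3′ end: actcccttcatgtgataaAGgtg
Srsf7 intron 3, 5′ end: cagGTattt
Srsf7 intron 3, 3′ end: ttttctaacttaaaaaatAGgtc
All 3 have the usual GT and AG dinucleotides. Of the 52 introns of the 10 main coding transcripts, 10 have a model that retains them, among them 3 of the 6 with a premature-stop exon and 7 of the other 46.

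**Figure D3:**
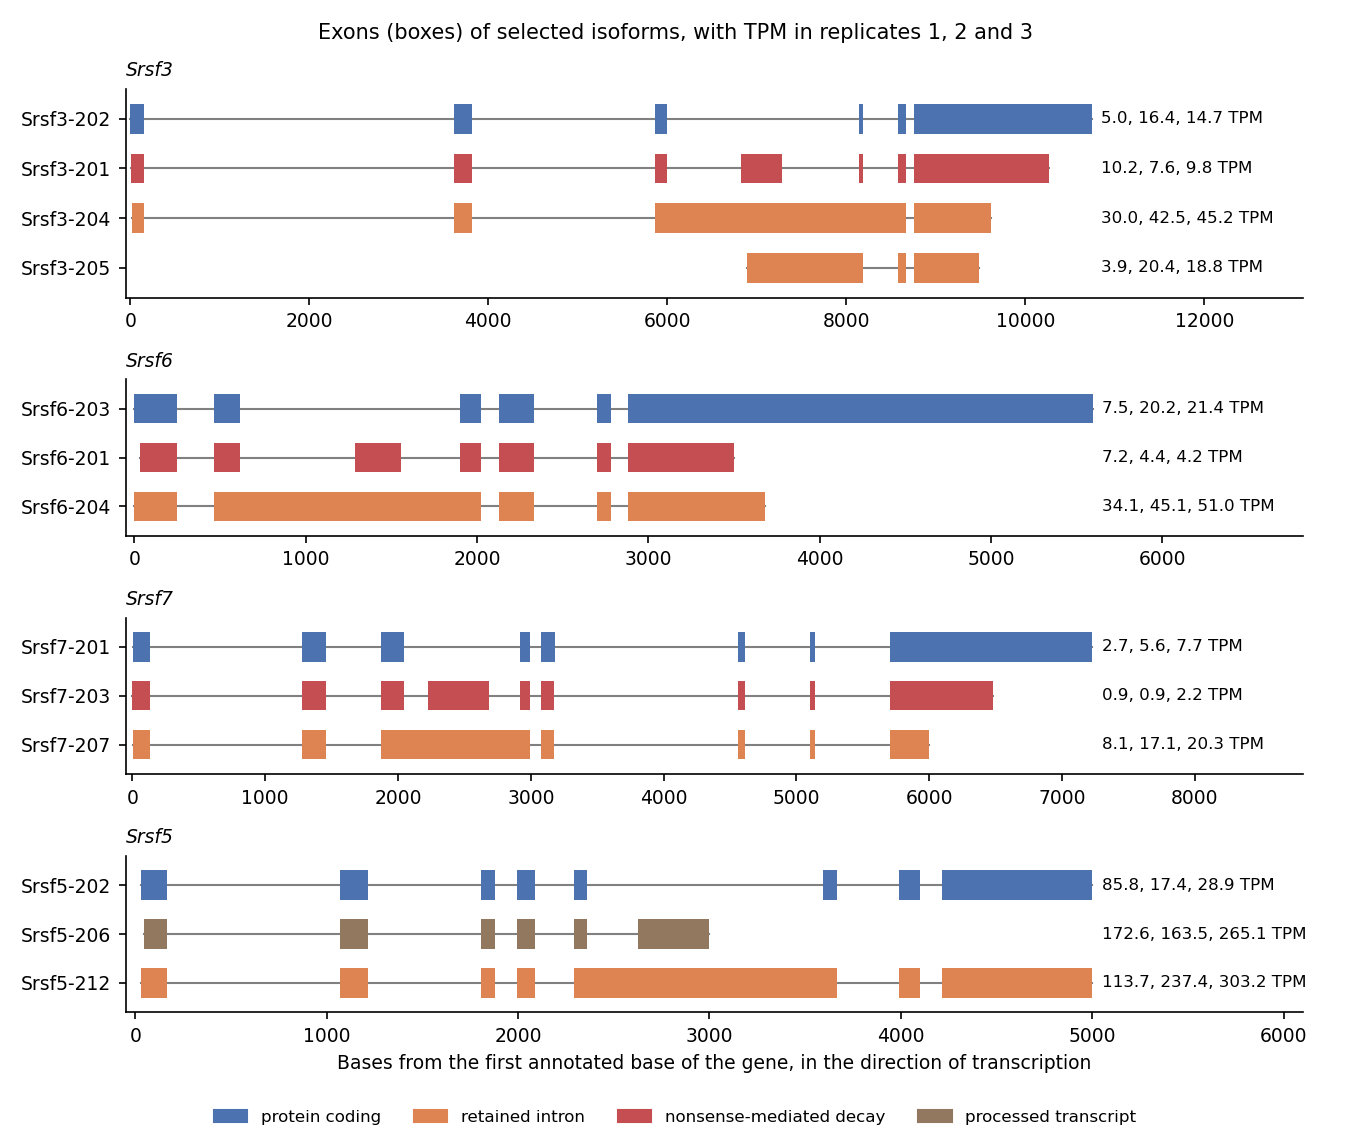
Exons (boxes) of selected isoforms of Srsf3, Srsf6, Srsf7 and Srsf5, coloured by annotated class, along the distance in bases from the first annotated base of the gene; the TPM in replicates 1, 2 and 3 stands at the right. In Srsf3, Srsf6 and Srsf7 the premature-stop exon (red model) lies where the retained-intron model (orange) is continuous.

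In Srsf11 and Srsf4 no model retains the whole intron. The RNA there belongs to models that start or end inside it and to decay-class models that cross it through the premature-stop exons. Intron 2 of Srsf11 (chr3:158022951-158026724, 3774 bases) was spliced in 9.99, 11.3 and 13.2% of the RNA across it, or 12.6, 16.9 and 17.6% in kallisto layout. The models inside it had 138, 266 and 299 TPM. Chief among them were Srsf11-208, which ends in the intron (39.2, 94.8 and 105.5 TPM), and Srsf11-213, which starts in it (38.9, 85.3 and 98.3 TPM). Both are annotated as retained-intron transcripts. Intron 1 of Srsf4 (chr4:131873871-131891206, 17336 bases) was spliced in 43.5, 43.8 and 48.5% in RSEM layout and in 14.7, 14.2 and 13.9% in kallisto layout, so its level rests on the quantification although the libraries are close within each. Intron 1 of Srsf9 (chr5:115327500-115330497) was spliced in 77.2, 89.1 and 83.3%, or 56.0, 47.0 and 41.4% in kallisto layout.

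Srsf5, Srsf2 and Srsf10 had a poorly spliced intron without such an exon. In Srsf5 it is intron 5 (chr12:80947866-80949094, 1229 bases), whose 5′ end reads cagGTttgt and whose 3′ end reads cataattgtcttgtgttaAGgat. Its spliced form had 170.2, 46.1 and 61.8 TPM, its retaining models 154, 317 and 372 TPM. Replicate 1 thus stood apart, with 34.3% spliced against 8.76 and 8.84%. A further model, Srsf5-206, ends inside the intron and had 173, 164 and 265 TPM. In Srsf2 it is intron 2, which follows the stop codon (chr11:116850962-116852020). It was retained in 59.6, 59.4 and 63.2% of the RNA across it. The decay-class Srsf2-202, listed at 0 TPM in each library in RSEM layout, and the coding Srsf2-206 have an exon inside this intron. That exon was not counted above, since no stop of Srsf2-202 is annotated inside it. In Srsf10 it is intron 2 (chr4:135858410-135861773), spliced in 35.1, 41.5 and 39.3%, and the leading isoform Srsf10-207, a processed transcript (a transcript annotated without a coding frame), ends inside it with 17.5, 27.2 and 24.9 TPM. In Srsf1 the less spliced of the 2 introns of Srsf1-201 was intron 2, at 79.1, 89.5 and 85.7% in RSEM layout and 71.2, 64.9 and 66.7% in kallisto layout. A stretch inside the last exon of Srsf1-201 is an intron in the coding Srsf1-205, and this was not among the introns measured.

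The transcripts were also summed by annotated class. Of the 10 genes, 8 have a transcript annotated as retained intron (Srsf9 and Srsf10 do not), and 9 have one annotated for nonsense-mediated decay (Srsf10 does not). In RSEM layout the isoform with the highest mean was of the retained-intron class in 6 genes, protein coding in Srsf1, Srsf4 and Srsf9, and a processed transcript in Srsf10. By kallisto means it was a processed transcript in Srsf3 (Srsf3-209, 34.8 TPM) and Srsf5 (Srsf5-206, 161 TPM). It was the retained-intron Srsf4-201 (12.6 TPM) in Srsf4, and its class was unchanged in the other genes. The same isoform led in all 3 libraries of both quantifications in 5 genes: Srsf1, Srsf2, Srsf6, Srsf9 and Srsf10. The retained-intron share of the gene in RSEM layout was 88.5 ± 0.753% in Srsf11, 75.2 ± 8.88% in Srsf3, 71.6 ± 8.83% in Srsf7, 66.9 ± 2.47% in Srsf6 and 60.7 ± 2.13% in Srsf2 (SD, n = 3). It was 42.4 ± 12.4% in Srsf5, 30.2 ± 2.86% in Srsf4 and 29.3 ± 8.52% in Srsf1. Over the 4500 protein-coding genes with this class and a mean of at least 5 TPM the median share was 44.0%, so 5 of the 8 lay above it and 3 below. In kallisto layout the mean shares were 76.5% in Srsf11, 56.4% in Srsf3 (42.2% in replicate 1), 69.9% in Srsf7, 69.1% in Srsf6 and 61.5% in Srsf2. They were 39.7% in Srsf5, 37.5% in Srsf4 and 39.2% in Srsf1. No median over all genes was made in that layout.

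Single isoforms showed where these shares come from. Of the 85 transcripts, 35 held at least 10% of their gene's mean TPM in either quantification, and those not yet described follow. In Srsf11 the short Srsf11-211, which starts in intron 10, had 103.8, 18.3 and 22.2 TPM. It led the gene in replicate 1, where Srsf11-208 led in replicates 2 and 3, and intron 10 was spliced in 36.0, 87.0 and 86.9% accordingly. Srsf11-203, which ends in intron 2, had 27.6, 41.6 and 53.3 TPM. In Srsf3, Srsf3-210 covers the start of intron 1 as a single exon and had 17.6, 40.1 and 45.1 TPM, and Srsf3-205, which starts in intron 3, had 3.94, 20.4 and 18.8 TPM. Both were lowest in replicate 1. The processed transcript Srsf3-209 went the other way with 12.6, 2.46 and 1.07 TPM, and was far higher in kallisto layout (53.5, 24.5 and 26.3 TPM), where it led Srsf3 in replicate 1.

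In Srsf5 the short processed transcript Srsf5-211, which ends in intron 2, had 49.7, 77.2 and 65.0 TPM. In Srsf7, Srsf7-206, which also retains intron 3, had 3.17, 6.70 and 6.48 TPM, and Srsf7-204, which runs from intron 3 to intron 5, had 2.32, 10.1 and 9.37 TPM. The coding Srsf7-208 had 3.52, 1.59 and 0.40 TPM, highest in replicate 1, where these retained-intron models were lowest. The interval listed with its replicate 1 value ran from 0.000119 to 5.49 TPM, so that value is uncertain. In kallisto layout Srsf7-208 had 8.88, 1.92 and 0 TPM. The coding Srsf7-201 was lowest in replicate 1 (2.73, 5.64 and 7.67 TPM). In Srsf2 the coding Srsf2-201 had 12.5, 42.2 and 24.2 TPM, below the retaining Srsf2-203 at 29.9, 72.9 and 47.9 TPM in each library. In Srsf10 the coding Srsf10-204 had 7.38, 16.1 and 11.0 TPM, below Srsf10-207 in each library.

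In Srsf1 the coding Srsf1-201 had 5.72, 14.7 and 11.4 TPM and the longer coding Srsf1-205 had 2.82, 7.66 and 6.23 TPM. Its retained-intron models are short: Srsf1-203, which lies within the last exon, had 4.32, 3.28 and 5.34 TPM, and Srsf1-206, which ends in intron 2, had 3.41, 2.76 and 3.41 TPM. The decay-class Srsf1-204 had 4.38, 1.13 and 2.78 TPM. The coding forms were lowest in replicate 1 and the decay form highest there. In Srsf4 the coding Srsf4-202 had 10.02, 11.9 and 16.8 TPM and the retained-intron Srsf4-201, which starts in intron 1, had 6.24, 8.87 and 10.7 TPM, an order that turned in kallisto layout. In Srsf9 the coding Srsf9-201 had 3.58, 9.74 and 4.34 TPM and the processed Srsf9-202 had 0.16, 1.19 and 0.49 TPM.

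**Figure D4:**
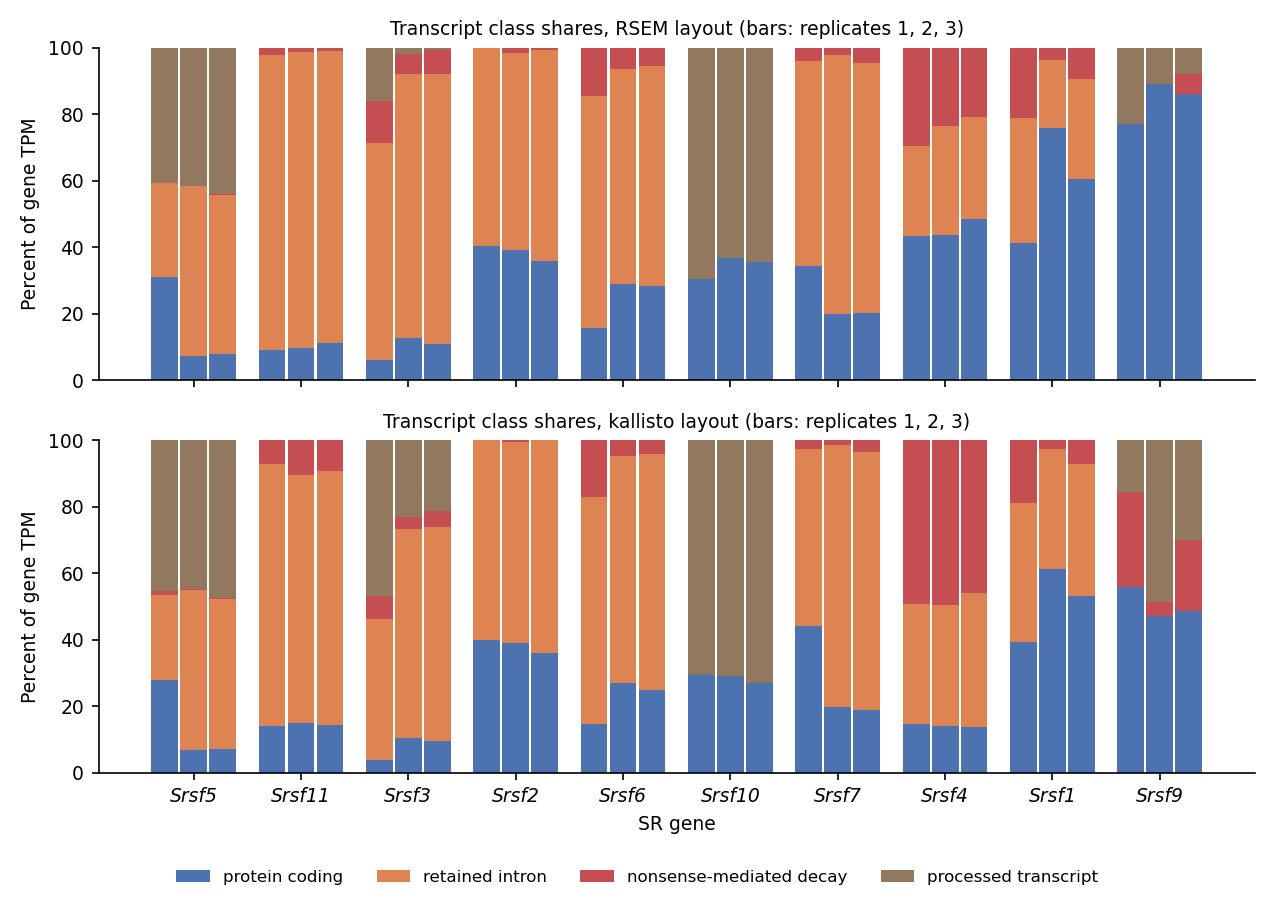
Share of each gene's TPM in 4 annotated transcript classes, as stacked bars for replicates 1, 2 and 3, in RSEM layout (top) and kallisto layout (bottom). Retained-intron transcripts (orange) hold most of Srsf11, Srsf2, Srsf6 and Srsf7 in both, while Srsf4 and Srsf9 change with the layout.

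The balance of the classes was tested as log2 of the retained-intron TPM over the protein-coding TPM, each plus a pseudocount of 0.1, against 0 with limma over 4311 genes at a Benjamini-Hochberg adjusted p of 0.05. A ratio of 0 marks equal TPM of the classes and not equal splicing, since it depends on which models are annotated. Of all genes tested, 24.3% had more retained-intron TPM and 25.6% more protein-coding TPM. Of the 8 SR genes tested, 4 had more retained-intron TPM, 0 had more protein-coding TPM and 4 did not pass. Unadjusted, limma put 5 and 1 of them under 0.05, and the same test on kallisto TPM called 6 and 0. The median ratio of the 8 genes was 1.53, beside -0.06 over all genes tested. With expected counts in place of TPM, all genes split 745 to 2420 and the SR genes 6 to 1, with medians of 1.30 and -1.19 for the SR genes and all genes.

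Srsf11 had ratios of 3.30, 3.18 and 2.96, a mean of 3.15 (SE 0.20, adjusted p = 0.00292 with limma). Srsf3 had 3.35, 2.65 and 2.89, a mean of 2.96 (SE 0.24, adjusted p = 0.00329 with limma). These genes had about the same ratio in each library, far from the median. Srsf7 had 0.82, 1.96 and 1.88 (mean 1.55, SE 0.31, adjusted p = 0.0177 with limma), lowest in replicate 1. Srsf6 had 2.13, 1.16 and 1.23 (mean 1.5, SE 0.28, adjusted p = 0.0154 with limma), highest in replicate 1. Without replicate 3 the ratios of Srsf6 and Srsf7 were 1.64 and 1.39, of about the same size, but did not pass (adjusted p = 0.0671 and 0.0982 with limma). Over all genes tested, calls of this direction then fell from 1049 to 351. Without replicate 2, the library with the stromal markers, 4 of 8 were again called.

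Srsf5 did not pass, and its libraries went different ways. Its ratios were -0.14, 2.78 and 2.59 (mean 1.74, SE 0.66, adjusted p = 0.0892 with limma). In replicate 1 the protein-coding isoforms Srsf5-201 and Srsf5-202 had 82.4 and 85.8 TPM, beside 19.9 and 17.4 TPM in replicate 2 and 20.7 and 28.9 TPM in replicate 3. The retained-intron isoform Srsf5-212 had 114, 237 and 303 TPM, lowest in replicate 1. A range between libraries as wide as that of Srsf5 was found in 6.38% of the genes tested. Without replicate 1 the mean was 2.68 (adjusted p = 0.0262 with limma). Replicate 1 also had the most starting RNA and the fewest counts, and the part of these in the result was not tested.

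Srsf2 had 0.56, 0.60 and 0.81 (mean 0.66, SE 0.20, adjusted p = 0.0506 with limma), just outside the threshold, and passed with kallisto TPM (0.68, adjusted p = 0.0248 with limma). Srsf1 had -0.14, -1.87 and -1.0 (mean -1.01, SE 0.39, adjusted p = 0.0906 with limma), the one SR gene with a mean below -1. Srsf4 had -0.67, -0.42 and -0.65 (mean -0.58, SE 0.20, adjusted p = 0.0678 with limma). Its direction turned with kallisto TPM, to 1.37 (adjusted p = 0.00302 with limma), so no direction can be given for Srsf4.

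Transcripts of the nonsense-mediated decay class were fewer than protein-coding ones in most SR genes, as they were in most genes. Of 1677 genes tested in the same way, 3.34% had more of that class and 72.4% more protein-coding TPM. Of the 9 SR genes tested, 0 had more of it, 6 had more protein-coding TPM and 3 did not pass. Unadjusted, limma put 0 and 6 under 0.05, and on kallisto TPM it called 1 (Srsf4) and 5. The share of 6 of 9 is near that background and is no result about the SR genes. The median log2 ratio was -2.74 over the 9 genes and -3.23 over all genes tested.

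The 3 that did not pass are Srsf3, Srsf4 and Srsf6, which have a premature-stop exon inside an intron, as do Srsf7, Srsf9 and Srsf11, which passed. Srsf3 had ratios of 1.03, -1.09 and -0.58 (mean -0.22, SE 0.54, adjusted p = 0.730 with limma), and the sign of its mean turned to 0.22 without replicate 2 (adjusted p = 0.765 with limma). Srsf6 had -0.11, -2.17 and -2.35 (mean -1.54, SE 0.59, adjusted p = 0.0674 with limma), and without replicate 1 it passed at -2.26 (adjusted p = 0.0146 with limma). In both genes replicate 1 had the highest ratio. Srsf4 had -0.56, -0.89 and -1.22 (mean -0.89, SE 0.36, adjusted p = 0.0753 with limma), and with kallisto TPM 1.74 (adjusted p = 0.00338 with limma). At the other end, Srsf5 had -10.73, -5.96 and -5.66, with its decay-class transcript listed at 0 in replicate 1. The size of such ratios depends on the pseudocount and the quantification. Srsf5 had a mean of -7.45, and -4.76 with kallisto TPM. Srsf2, with its decay class at 0 in replicate 1, was at -5.89, and at -2.90 with posterior mean TPM. Srsf9, at 0 in replicates 1 and 2, was at -5.11, and at -7.40 with a pseudocount of 0.01 and -1.77 with kallisto TPM. These 3 genes passed in limma under each of the TPM and pseudocount settings named here, with protein-coding TPM the higher. Without replicate 2, Srsf9 fell under the minimum of 5 TPM and was not tested, which left 8 SR genes. Its call therefore depends on including replicate 2, the library with the stromal markers. Among the others that passed, Srsf11 at -2.80, Srsf7 at -2.74 and Srsf1 at -2.59 lay near the median of all genes tested. The call of Srsf1 (adjusted p = 0.0279 with limma) did not hold without replicate 2 (ratio -1.79, adjusted p = 0.0843) or replicate 3 (ratio -2.57, adjusted p = 0.0752), although without replicate 3 the ratio was the same size. The call of Srsf11 did not hold with kallisto TPM (-0.70, adjusted p = 0.0548 with limma).

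**Figure D5:**
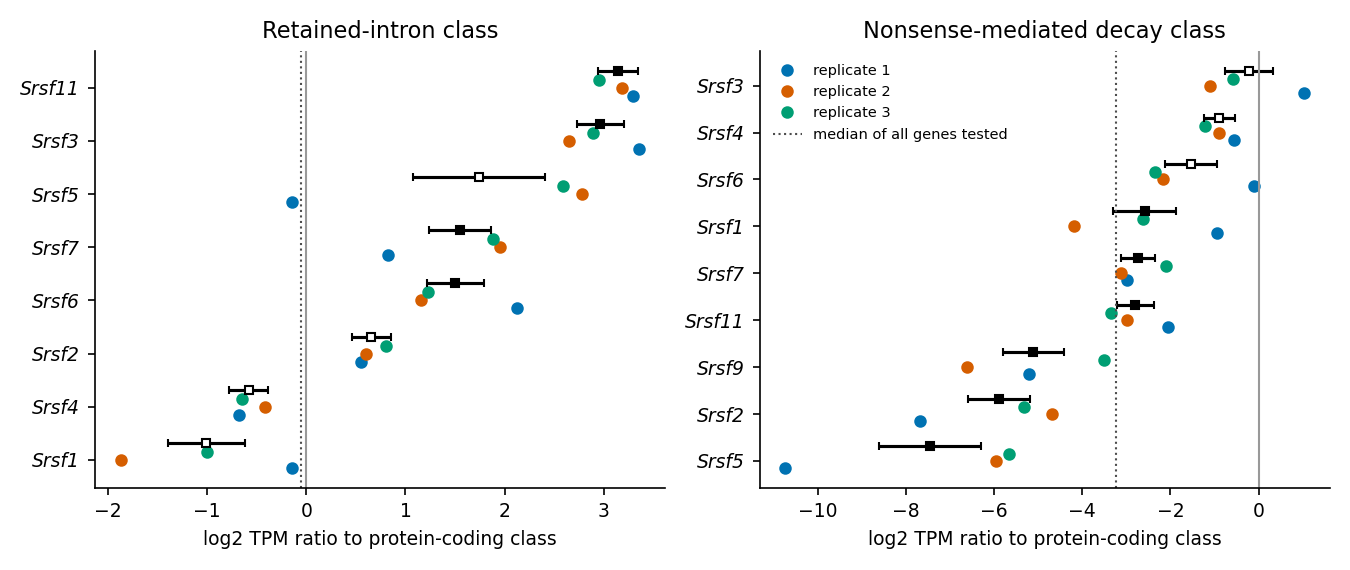
log2 TPM ratio of retained-intron (left) and nonsense-mediated decay (right) transcripts to protein-coding transcripts for each SR gene, with points for the libraries and squares with bars for the mean and its SE, filled where limma's adjusted p was under 0.05. The dotted line is the median of all genes tested; Srsf11 and Srsf3 lie farthest to the right on the left panel, and in Srsf5 replicate 1 lies apart from replicates 2 and 3.

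Other genes that act with SR proteins were taken from lists, whose counts stand beside 24.3% of all genes tested with more retained-intron TPM and 25.6% with more protein-coding TPM. Of 18 SR-related splicing proteins 16 were tested, of which 10 had more retained-intron TPM, 3 more protein-coding TPM and 3 did not pass, with a median ratio of 0.88. U2af1, the small subunit of the factor that reads the 3′ splice site, was at 3.21 (SE 0.29), and Sfswap, a splicing regulator known to control its own introns, at 2.40 (SE 0.32). Pnn, a protein associated with the exon junction complex, was at -1.98 (SE 0.20), and Scaf1, a protein that binds the tail of RNA polymerase II, at -2.07 (SE 0.33). Their adjusted p from limma lay between 0.00374 and 0.0102.

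Of 11 genes for the kinases and phosphatase that act on the SR tail and for its nuclear importer, 10 were tested: 5 had more retained-intron TPM, 0 more protein-coding TPM and 5 did not pass, with a median of 1.00. The Cdc2-like kinases, which phosphorylate SR proteins in the nucleus, were among them. Clk1 had 4.5, 4.2 and 2.75 (mean 3.82, SE 0.41, adjusted p = 0.00497 with limma) and Clk2 2.05 (SE 0.23, adjusted p = 0.00529 with limma). Lower among the called genes were Prpf4b at 1.17 and Clk3 at 0.83. Of 17 nonsense-mediated decay and exon junction factors 8 were tested, with 2, 3 and 3 in the same order and a median of 0.42. These shares are near those of all genes and are no result about the list. Among the genes that passed in limma, the decay factors Smg9 and Smg5 had ratios of 2.41 and 1.37, and the kinase Smg1 and the endonuclease Smg6 had -1.09 and -3.33.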

How the data were processed

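Chromatin-fraction total RNA was measured in 3 libraries of 1 group. Expected counts and TPM per gene and transcript were deposited by the authors in RSEM layout, and estimated counts and TPM per transcript in kallisto layout. The genome build was mm10, per the labels, and names match GENCODE M21. Aligner, strand setting and versions of the authors' tools: not given in the sources used here. Transcript classes and symbols came from the kallisto-layout names, RSEM transcripts were matched by identifier, and 97 transcript rows without a gene name were not used. Replicates were not copies (chi-square per gene 61.5 to 102 between pairs). The members and lists were chosen with earlier results of these data known. Named were all 10 SR genes with each transcript holding at least 10% of the gene in either quantification, and from each other list the 2 highest and 2 lowest called ratios; a few further isoforms (Srsf5-201, Srsf5-202, Srsf3-201, Srsf6-201, Srsf7-203, Srsf11-210 and Srsf11-212) were added after values were seen.

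Class ratios used TPM plus 0.1 in limma 3.58.1 (R 4.3.3) with Benjamini-Hochberg adjustment over all genes with both classes and a summed mean of at least 5 TPM. Tested on simulated data, a log2 ratio of 2 or 4 was recovered for 55 or 89% of 100 changed genes each among 4311 (10 false calls), and for 51 or 82% among 1677 (6 false calls). All other simulated ratios were 0, whereas in the data 24.3 and 25.6% of the 4311 genes and 3.34 and 72.4% of the 1677 were called. The adjustment was thus stricter in the simulation, and its rates do not carry over to the test reported. Python 3.11.15, pandas 2.3.3, numpy 2.4.6 and matplotlib 3.10.9 served for tables and figures. Alternatives were other pseudocounts and minimums, posterior mean TPM, kallisto TPM, expected counts and leaving out each replicate. No depth interval was made for TPM; gene expected counts summed to between 12602702 and 17222239.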

Additional observations from a re-analysis of the deposited data

How the results depend on the processing

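No paired analysis was possible because all samples belong to 1 group. Of the SR genes' ratios, 68 of 80 values for the retained-intron class and 72 of 85 for the decay class kept their direction and side of the threshold. The cause of the exceptions was not tested. Those that turned were Srsf4 with kallisto TPM (1.37 for retained intron and 1.74 for decay) and Srsf3 without replicate 2 (0.22 for decay, in a range of -0.84 to 0.22 over the libraries left out). Srsf1 lost its decay-class call with a pseudocount of 0.01 (ratio -2.64 beside -2.59) and without replicate 2 (-1.79) or 3 (-2.57), so that its ratio moved little except without replicate 2.

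Counts of genes moved as follows. With kallisto TPM, 1810 genes had more retained-intron TPM, 163 genes more decay-class TPM, and 1 SR gene more decay-class TPM. With expected counts, which favour longer models, the median retained-intron ratio over all genes was -1.19 in place of -0.06, and 2420 genes and 1 SR gene (Srsf1) had more protein-coding than retained-intron RNA, beside 745 genes and 6 SR genes the other way. With a minimum of 20 TPM, which tests fewer genes, 681 and 552 genes (1 of them the SR gene Srsf4) leaned to retained intron and protein coding, and in the decay comparison 32 and 466 genes, the latter with 3 SR genes. Without a minimum the decay comparison called 93 and 2132 genes.

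Leaving out each replicate gave 351 to 901 genes with more retained-intron TPM, 473 to 849 with more protein-coding TPM, 28 to 48 with more decay-class TPM and 878 to 1283 with less. For the SR genes these were 2 to 5, 0 to 0, 0 to 0 and 4 to 7. The lowest values for all genes and the value of 2 came without replicate 3, except 878 and 4, without replicate 2. Srsf9 was not tested for decay without replicate 2, so that 4 is out of 8 SR genes. Levels rescaled to protein-coding genes, which hold 26.9 to 35.1% of TPM, were about 3 times higher for each SR gene (Srsf5 2133 TPM, Srsf9 23.1 TPM). Depth limits Srsf9 most, with 65 to 131 counts.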
